A study of Mus musculus with 6 samples.

Results

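Levels of 10 genes encoding CC chemokines were compared in intestine of wild type mice and of mice lacking FcεRIα, the IgE-binding alpha chain of the high-affinity IgE receptor. The genes were Ccl2, Ccl7, Ccl8, Ccl3, Ccl4, Ccl5, Ccl11, Ccl20, Ccl25 and Ccl28, taken by gene name from a list chosen with earlier results of these data known, and each had 1 entry among the 56362 features of the count tables. All mice were BALB/c. The wild type group (label WT) and the knockout group (label FC, FcεRIα knockout) held 3 mice each, with 1 library per mouse. The letters DSS stand in the titles of both groups and are not expanded there, so what they denote was shared by wild type and knockout mice. The sources used here do not give the age and sex of the mice or the way the gene was disrupted. The series title speaks of epithelial cells, while the tissue label names intestine. Because the tissue was sequenced in bulk, fewer cells of a type and less RNA per cell cannot be told apart in any value given here.

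CC chemokines are small secreted proteins that draw leukocytes along a gradient through receptors of the CCR family. Inflammatory members are switched on in macrophages, stroma and epithelium during tissue damage and bring in monocytes, eosinophils and T cells. Homeostatic members are made without inflammation and place lymphocytes in tissue. In gut, CCL25 and CCL28 from the epithelium guide T cells and IgA-secreting plasma cells to the mucosa through CCR9 and CCR10.

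Libraries held 19031833 to 23092382 estimated counts. Levels are given as CPM, counts divided by library totals that were scaled by the TMM method, on a scale common to all libraries, and 3 counts, the most that a count of 0 allows, correspond to 0.124 to 0.187 CPM, for counting error only. The targeted gene, Fcer1a, had 0, 10 and 18 counts for wild types 1, 2 and 3 and 1, 0 and 0 for knockouts, so it gave no check of the label of wild type library 1. The colon genes Hoxb13 and Car1 had 3244 to 11877 counts per library, while the small intestinal genes Sis and Lct had 0 to 2 and Gata4 had 3 to 6. Fibroblast markers were lowest in wild type library 1 and knockout library 1. Summed levels of 8 fibroblast markers were 414, 2839 and 3839 CPM for wild types and 555, 2285 and 1589 CPM for knockouts. Those of 6 smooth muscle markers were 315, 2234 and 1486 CPM for wild types and 1365, 1377 and 1395 CPM for knockouts, so wild type library 1 alone was low. Summed levels of 12 epithelial markers were 28460, 14790 and 13910 CPM for wild types and 25340, 24750 and 21250 CPM for knockouts. None of the listed fibroblast, smooth muscle and epithelial markers was at 0 in any library. The groups overlapped in these sums. They did not in the sum of 8 squamous epithelium markers, at 14.0, 39.5 and 18.2 CPM for wild types and 5.63, 2.94 and 8.90 CPM for knockouts, or in that of 12 small intestine markers, at 175.5, 74.5 and 106 CPM for wild types and 199, 190 and 177 CPM for knockouts. The part of either in the results was not tested.

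Of the members 7 lie on chromosome 11 (GENCODE vM21 on GRCm38, the assembly that mm10 names), in a pair of clusters. Ccl2 (82035571 to 82037453), Ccl7 (82045712 to 82047525), Ccl11 (82057823 to 82062955) and Ccl8 (82115185 to 82116799) are on the plus strand of the first. Ccl5 (83525778 to 83530518, minus strand), Ccl3 (83647844 to 83649355, minus strand) and Ccl4 (83662584 to 83664683, plus strand) form the second, 1408978 bases further on. Ccl20 lies on chromosome 1 (83116766 to 83119167), Ccl25 on chromosome 8 (4325210 to 4360020) and Ccl28 on chromosome 13 (119623819 to 119654359), all on the plus strand. Windows of 250 bases before the start site (RefSeq, GRCm38.p6) were matched for 5 members, Ccl3, Ccl8, Ccl20, Ccl25 and Ccl28, and not for Ccl2, Ccl4, Ccl5, Ccl7 and Ccl11. Those of Ccl3, Ccl8, Ccl28 and Ccl20 are shown, the first 3 since among the matched members they had the fold changes farthest from 0 and Ccl20 for its NF-kappaB match. They are at chr11:83649379-83649628 on the minus strand for Ccl3, chr11:82114935-82115184 for Ccl8, chr13:119623569-119623818 for Ccl28 and chr1:83116516-83116765 for Ccl20, read 5′ to 3′ on the strand of the gene, with motif matches in capitals.
Ccl3: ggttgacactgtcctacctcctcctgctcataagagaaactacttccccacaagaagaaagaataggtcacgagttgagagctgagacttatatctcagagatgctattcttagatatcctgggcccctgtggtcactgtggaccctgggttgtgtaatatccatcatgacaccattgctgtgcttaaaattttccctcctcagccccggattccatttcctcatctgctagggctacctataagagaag
Ccl8: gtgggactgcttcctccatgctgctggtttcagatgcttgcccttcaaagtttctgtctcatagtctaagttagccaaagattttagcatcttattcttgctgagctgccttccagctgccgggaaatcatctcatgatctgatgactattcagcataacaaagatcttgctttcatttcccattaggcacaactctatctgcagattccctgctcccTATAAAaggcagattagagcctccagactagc
Ccl28: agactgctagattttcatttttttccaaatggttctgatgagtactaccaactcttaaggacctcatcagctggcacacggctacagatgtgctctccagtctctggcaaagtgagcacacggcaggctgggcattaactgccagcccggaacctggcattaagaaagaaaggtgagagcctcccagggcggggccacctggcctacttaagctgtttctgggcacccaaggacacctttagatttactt
Ccl20: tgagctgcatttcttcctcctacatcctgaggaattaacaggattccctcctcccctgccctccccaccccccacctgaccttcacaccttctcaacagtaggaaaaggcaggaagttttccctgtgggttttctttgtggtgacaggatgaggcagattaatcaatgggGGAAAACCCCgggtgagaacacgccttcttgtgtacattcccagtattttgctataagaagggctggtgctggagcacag
The motifs searched, 5 in all and on both strands, were the NF-kappaB consensus, the TATA box letters TATAAA, the AP-1 letters TGANTCA, the interferon gamma-activated letters TTCNNNGAA and the core of the interferon-stimulated response element. Ccl20, a gene known to be driven by NF-kappaB in epithelium, held an NF-kappaB match (GGAAAACCCC on the strand shown) from 80 to 71 bases before its start, a motif found in 3.9% of all 32851 promoter windows. Ccl8 held TATAAA from 32 to 27 bases before its start, as 12.4% of all windows did. Of the 2 windows of Ccl25, not shown, 1 held TATAAA from 16 to 11 bases before its start. No match to the 5 motifs lay in the windows shown for Ccl3 and Ccl28. AP-1 letters occurred in 6.75%, interferon gamma-activated letters in 7.02% and the response element core in 2.98% of all windows. A match is a description of letters and not evidence of binding.

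None of the chemokines passed the test between genotypes. By edgeR's quasi-likelihood test with p adjusted over all 16732 genes tested, 0 of the 9 members tested were called, beside 0% of all genes, and the smallest adjusted p among the members was 0.684. At an unadjusted p under 0.05 stood 2 members, Ccl7 and Ccl3, both lower in knockout gut, beside 6.84% of all genes and 2.30% in that direction. DESeq2 and limma-voom called 0 members as well, where they called 0.759% and 0.0120% of all genes. Ccl4 had too few counts for the gene-wide test. In a fit with no filter beyond 1 count, over 28424 genes, its log2 fold change was -2.80 (SE 0.80; edgeR adjusted p = 0.759). The log2 fold change (knockout minus wild type) was above 0 in 2 of the 9 tested members and below 0 in 7, where 44.2% of all tested genes were above 0. Its median was -0.43 over these members and -0.05 over all tested genes. In 2 of the 9 tested members, Ccl7 and Ccl3, every knockout library lay below every wild type library, beside 4.27% of all tested genes. In either direction the groups did not overlap in 13.0% of all tested genes. The same order as in Ccl7 and Ccl3 held for Ccl4, which was not among those 16732 genes. In 0 members did every knockout library lie above every wild type library, beside 8.73% of all tested genes.

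**Figure D1:**
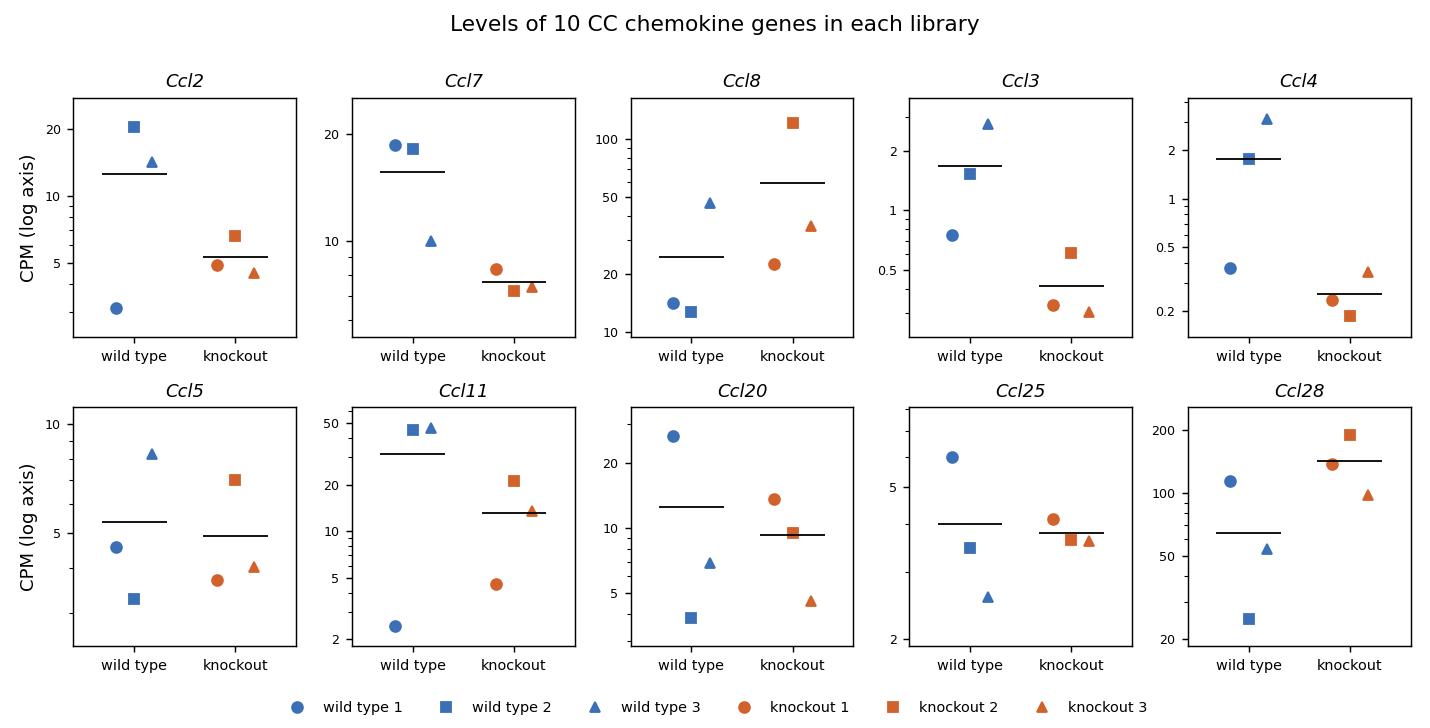
Level of each of the 10 CC chemokine genes in CPM (log axis, with its own range in each panel) in 3 wild type and 3 knockout libraries; symbols give the library number and bars the group means. Ccl7, Ccl3 and Ccl4 part the groups, with all knockout libraries lower, and in Ccl2 and Ccl11 wild type library 1 is the lowest of the 6.

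Among the monocyte chemoattractant family, Ccl2 and Ccl7 had lower and Ccl8 higher mean levels in knockout gut. Ccl7, which acts on CCR1, CCR2 and CCR3 and draws monocytes, was at 18.6, 18.1 and 10.01 CPM for wild types 1, 2 and 3 and at 8.32, 7.23 and 7.41 CPM for knockouts. All knockout values lay below the lowest wild type value, and the knockout libraries lay close together. The group means were 15.6 ± 4.84 CPM (SD, n = 3) and 7.66 ± 0.58 CPM, a log2 fold change of -1.03 (SE 0.30; edgeR adjusted p = 0.684). Leaving out any 1 library gave -1.26 to -0.90. Per 1000 counts of the 8 fibroblast markers of the same library, a scale chosen after the values were seen, Ccl7 had 45.1, 6.39 and 2.61 counts for wild types and 15.0, 3.17 and 4.67 for knockouts, and the groups overlapped. An exact permutation test of the log2 levels gave p = 0.10, two-sided, the smallest that 3 against 3 allows.

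Ccl2, the main ligand of CCR2 and the chemokine that calls monocytes out of bone marrow and blood, was at 3.12, 20.4 and 14.2 CPM for wild types and 4.87, 6.63 and 4.49 CPM for knockouts. Wild type libraries 2 and 3 lay above all knockout libraries, and wild type library 1 lay below them all. The log2 fold change was -1.24 (SE 0.63; edgeR adjusted p = 0.767). It was -1.73 without wild type library 1 (adjusted p = 0.0611) and -0.70 without wild type library 2. Wild type library 1 was the lowest of all libraries in Ccl2, in the fibroblast sum and in the smooth muscle sum. The highest library differed, since Ccl2 was highest in wild type library 2 and the fibroblast sum in wild type library 3. Set against 1000 counts of the 8 fibroblast markers of the same library, Ccl2 had 7.54, 7.19 and 3.69 counts for wild types and 8.78, 2.90 and 2.83 for knockouts, with the groups overlapping. With the mean level of the fibroblast markers as a covariate the log2 fold change was -0.71 (SE 0.40), and with that of the epithelial markers it was 0.02 (SE 0.39). Both fits were chosen after the values were seen. An annotated gene on the other strand, Gm17268, overlaps Ccl2 and had 0 counts in every library.

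Ccl8, a chemokine of tissue macrophages that in mice acts through CCR8, was at 14.1, 12.7 and 46.6 CPM for wild types and 22.5, 121 and 35.6 CPM for knockouts. Knockout library 2 was the highest of the 6 and the groups overlapped, since wild type library 3 lay above knockout libraries 1 and 3. The log2 fold change was 1.29 (SE 0.77; edgeR adjusted p = 0.790), and 0.19 (SE 0.65) without knockout library 2. Macrophage genes were also highest in that library, with Csf1r, the receptor for macrophage growth factor, at 154 CPM against 29.0 to 101 CPM in the others. Summed levels of the 14 monocyte and macrophage markers were 726, 616 and 1278 CPM for wild types and 661, 1528 and 719 CPM for knockouts. Per 1000 counts of those markers, Ccl8 had 19.4, 20.7 and 36.5 counts for wild types and 34.0, 79.3 and 49.5 for knockouts, so that knockout library 1 alone lay within the wild type range. Of all tested genes 0.891% had every knockout library higher on that scale. Compared with Ccl2 per base of transcript, Ccl8 was 7.19, 0.992 and 5.24 times as abundant for wild types and 7.34, 29.1 and 12.6 times for knockouts. That ratio was chosen after the values were seen and was not tested.

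Ccl3 and Ccl4, which attract monocytes and T cells, were scarce everywhere and scarcest in knockout gut. Ccl3 had 12, 37 and 61 counts for wild types and 7, 13 and 7 for knockouts, or 0.748, 1.53 and 2.76 CPM against 0.331, 0.607 and 0.305 CPM. Every wild type library lay above every knockout library. The log2 fold change was -2.01 (SE 0.61; edgeR adjusted p = 0.684), with a range of -2.43 to -1.46 when 1 library was left out. Ccl4 had 6, 43 and 69 counts for wild types and 5, 4 and 8 for knockouts. Its wild type library 1, at 0.374 CPM, lay just above knockout library 3, at 0.349 CPM, and the other wild type libraries far above both. Summed over each group, 118 and 17 counts gave a knockout to wild type ratio of 0.137 after scaling, with an exact 95% interval of 0.0773 to 0.229 for counting error only. An exact permutation test of the Ccl4 log2 levels gave p = 0.10, two-sided.

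The macrophage sum was not lowest where Ccl3 and Ccl4 were lowest. Mean log2 levels of the 14 monocyte and macrophage markers were also taken, each relative to its own mean over the 6 libraries. They were -0.90, -0.30 and 0.73 for wild types and -0.85, 1.26 and 0.055 for knockouts. Within wild type these rose from library 1 to library 3, as Ccl3 and Ccl4 did, and knockout library 2 was the highest of all. Per 1000 counts of the 14 monocyte and macrophage markers, Ccl3 had 1.03, 2.48 and 2.16 counts for wild types and 0.501, 0.397 and 0.425 for knockouts. Ccl4 had 0.516, 2.89 and 2.45 counts for wild types and 0.358, 0.122 and 0.486 for knockouts. Both parted the groups on this scale too, as 1.38% of all tested genes did in the same direction. Knockout library 2, with the highest macrophage sum, held 13 counts of Ccl3 and 4 of Ccl4. Of 8 markers of neutrophils, which also make Ccl3 and Ccl4, 7 were tested, and 0 passed. All 7 had negative log2 fold changes, with a median of -1.26, where 44.2% of all tested genes were above 0. Their summed level was 1298, 941 and 488 CPM for wild types and 692, 682 and 613 CPM for knockouts. The sum was thus lowest in wild type library 3, the library highest in Ccl3 and Ccl4. Mean log2 levels of the 8 markers, each relative to its own mean over the 6 libraries, ordered the libraries otherwise. They were -0.29, 0.96 and 0.65 for wild types and -0.90, -0.08 and -0.34 for knockouts. Wild type libraries 2 and 3 were highest in these, as in Ccl3 and Ccl4. At an unadjusted edgeR p under 0.05 stood 2 of the 7 tested markers, both lower, beside 2.30% of all tested genes. The part of neutrophils and of macrophages in the Ccl3 and Ccl4 values was not tested.

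Ccl5, a ligand of CCR1 and CCR3 made largely by T cells and NK cells, showed no difference beyond its spread. It was at 4.55, 3.26 and 8.24 CPM for wild types and 3.69, 7.001 and 4.01 CPM for knockouts, a log2 fold change of -0.13 (SE 0.46; edgeR adjusted p = 0.959). Wild type library 3 and knockout library 2 were the highest of their groups, and they were also the highest in the sum of 10 T cell and NK markers, at 96.5 and 60.8 CPM. Per 1000 counts of those markers, Ccl5 had 96.7, 121 and 85.4 counts for wild types and 97.99, 115 and 106 for knockouts. Its spread over libraries was thus narrower on that scale, with the groups overlapping. Of all tested genes 2.42% had every knockout library higher and 0.377% every one lower on it.

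Ccl11, or eotaxin, which draws eosinophils through CCR3 and is made by fibroblasts and smooth muscle, had the widest fold range over the 6 libraries. It was at 2.43, 44.9 and 46.6 CPM for wild types and 4.54, 21.2 and 13.5 CPM for knockouts. Library 1 of each group was low, and the groups overlapped. The log2 fold change was -1.26 (SE 1.001; edgeR adjusted p = 0.829), and -1.86 without wild type library 1 (adjusted p = 0.114). The order of the 6 libraries in Ccl11 was the order in the fibroblast sum. Per 1000 counts of fibroblast markers Ccl11 had 5.88, 15.8 and 12.1 counts for wild types and 8.19, 9.29 and 8.51 for knockouts. The knockout values then lay close together and inside the wild type range, and 0.753% of all tested genes had every knockout library higher and 0.514% every one lower on that scale. With the fibroblast covariate the log2 fold change was -0.29 (SE 0.19), and with the epithelial covariate it was 1.18 (SE 0.45, adjusted p = 0.382). Of 6 listed markers of eosinophils, the cells that eotaxin attracts, 1 had enough counts to be tested. Epx had 0 counts in 5 libraries and 1 in knockout library 3, and Prg2 had 0 to 5 counts per library. Siglecf had 28, 17 and 18 counts for wild types and 37, 34 and 14 for knockouts. The receptor gene Ccr3 had 0 to 17 counts per library.

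**Figure D2:**
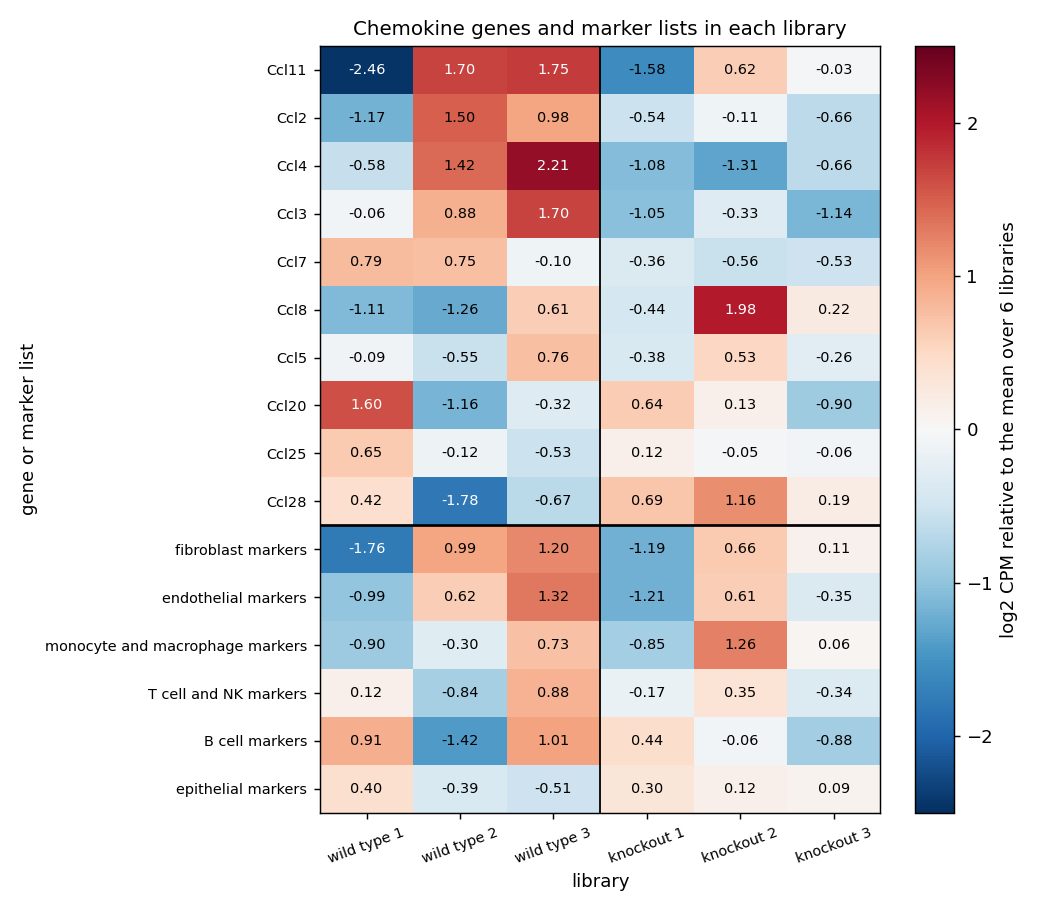
Log2 CPM of each member, and mean log2 CPM of each marker list, relative to its own mean over the 6 libraries (columns); red is above and blue below that mean. Ccl11 and Ccl2 share the low value of the fibroblast list in wild type library 1 (-2.46, -1.17 and -1.76), and Ccl8 shares the high value of the macrophage list in knockout library 2 (1.98 and 1.26).

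Of the epithelial chemokines, Ccl28 had the higher mean level in knockout gut, while Ccl25 and Ccl20 showed no difference beyond their spread. Ccl28, which colonic and glandular epithelium secretes for CCR10-bearing plasma cells and which also kills microbes, was at 114, 24.8 and 53.7 CPM for wild types and 138, 190 and 97.6 CPM for knockouts. Knockout library 3 lay below wild type library 1, and all other knockout values lay above all wild type values. The means were 64.2 ± 45.6 CPM (SD, n = 3) and 142 ± 46.6 CPM, a log2 fold change of 1.15 (SE 0.55; edgeR adjusted p = 0.749). It stayed above 0 in each fit that left out 1 library, from 0.76 without wild type library 2 to 1.80 without wild type library 1 (adjusted p = 0.0836).

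The epithelial sum was highest in wild type library 1, the wild type library highest in Ccl28. Per 1000 counts of the 12 epithelial markers it had 4.01, 1.68 and 3.86 counts for wild types and 5.44, 7.70 and 4.59 counts for knockouts. This scale was chosen after the values were seen. On it the lowest knockout library exceeded the highest wild type one, as in 1.89% of all tested genes. An exact permutation test of the ratios gave p = 0.10, two-sided, the smallest possible. With the epithelial covariate the log2 fold change was 0.79 (SE 0.46), and with the fibroblast covariate 1.26 (SE 0.46; edgeR adjusted p = 0.389).

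Ccl25, the CCR9 ligand that small intestinal epithelium and thymus make in quantity, was low and even. It was at 5.99, 3.47 and 2.58 CPM for wild types and 4.11, 3.64 and 3.62 CPM for knockouts, with a log2 fold change of -0.08 (SE 0.39; edgeR adjusted p = 0.973). The knockout values lay inside the wild type range. Per 1000 epithelial marker counts Ccl25 had 0.210, 0.235 and 0.186 counts for wild types and 0.162, 0.147 and 0.170 for knockouts, which parted the groups with knockout lower, as in 8.10% of all tested genes. Ccl25 overlaps Elavl1, an RNA-binding protein gene on the other strand with 56.9 to 106 CPM, and no source used here gives the strand setting of the counting, so reads of the overlapping pair cannot be told apart.

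Ccl20, which epithelium makes on inflammatory stimulation and which draws B cells, dendritic cells and type 17 T cells through CCR6, varied widely within wild type. It was at 26.6, 3.84 and 6.93 CPM for wild types and 13.6, 9.52 and 4.62 CPM for knockouts. Wild type library 1 was the highest of the 6 and wild type library 2 the lowest. The log2 fold change was -0.43 (SE 0.76; edgeR adjusted p = 0.908) and turned to 0.74 (SE 0.54) without wild type library 1. B cell markers had their lowest value in the same library as Ccl20, with a sum of 46.6 CPM in wild type library 2 against 67.5 to 250.5 CPM in the others. Their part in the Ccl20 values was not tested.

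**Figure D3:**
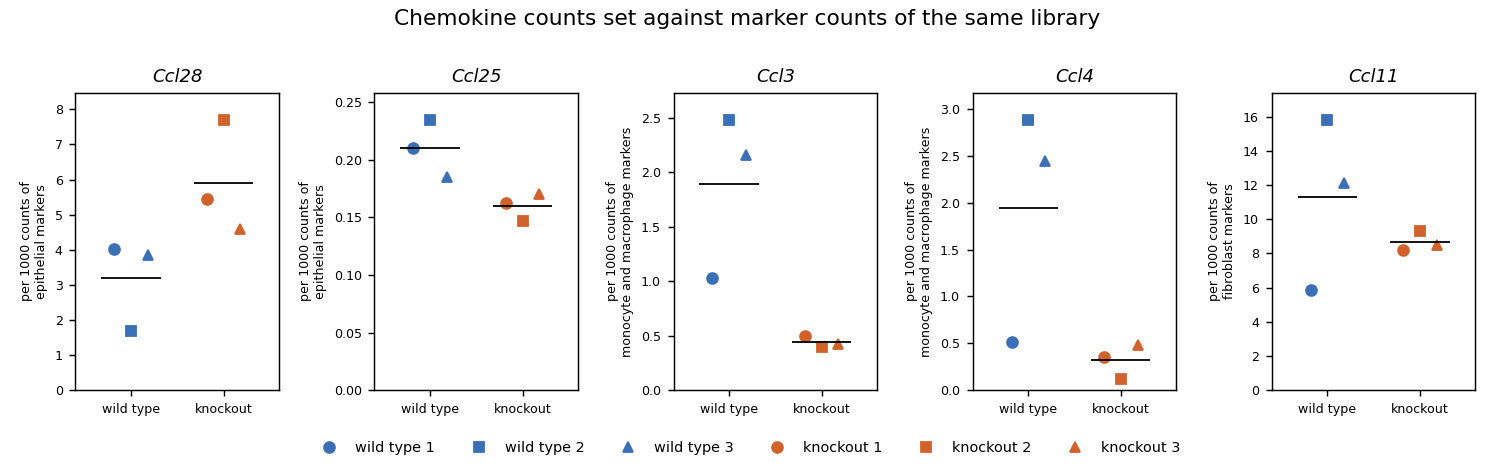
Counts of 5 chemokine genes per 1000 counts of a marker list in the same library (axes start at 0; bars are group means). Ccl28 is higher in all knockout libraries, Ccl25, Ccl3 and Ccl4 are lower in all of them, and for Ccl11 the knockout values lie between 8.19 and 9.29, inside the wild type range.

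The contrast between monocyte-drawing and epithelial homing chemokines was taken within each library, as the mean log2 CPM of Ccl2, Ccl7 and Ccl8 minus that of Ccl25 and Ccl28. It was -1.47, 0.84 and 0.65 for wild types 1, 2 and 3 and -1.30, -0.56 and -0.83 for knockouts. Wild type libraries 2 and 3 had positive and all knockout libraries negative values. Wild type library 1 had the lowest value of all. CPM is not divided by transcript length, which is 3740 bases for Ccl28 and 813, 801 and 511 for Ccl2, Ccl7 and Ccl8. The sign of a value therefore does not say which genes were more abundant, and only differences between libraries can be read. The means were 0.0067 ± 1.29 (SD, n = 3) and -0.89 ± 0.37, a difference of -0.90. That difference is smaller than the SD of wild type. It ran from -1.64 without wild type library 1 to -0.48 without wild type library 2. The mean hides opposed members, since Ccl8 and Ccl28 had positive and Ccl2 and Ccl7 negative fold changes.

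Of the pairs of a monocyte-drawing gene with Ccl28 that were computed, Ccl7 parted the groups and Ccl2 did not. Ccl7 was 0.762, 3.42 and 0.870 times as abundant per base of transcript as Ccl28 in wild type libraries, and 0.282, 0.177 and 0.355 times in knockout libraries. Every knockout ratio lay below every wild type ratio. Ccl2 was 0.126, 3.79 and 1.21 times as abundant as Ccl28 for wild types and 0.163, 0.160 and 0.212 times for knockouts, where wild type library 1 was the lowest of the 6. Within the epithelial chemokines, Ccl28 was 4.42, 1.66 and 4.82 times as abundant as Ccl25 for wild types and 7.77, 12.1 and 6.25 times for knockouts. These pairs were chosen after the values were seen and carry no test. The share of all genes that part the groups on such ratios was not computed. Ccl8, the other monocyte-drawing gene of the contrast, was not set against Ccl28, so the pairs do not cover the whole contrast.

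Ordered by level per base of transcript (TPM, counts over the listed gene length scaled to the same sum in each library), wild type gut was led by Ccl8, at 96.6 ± 89.1 TPM (SD, n = 3), and Ccl11, at 62.4 ± 51.5 TPM. Ccl7, Ccl2 and Ccl28 followed at 35.8 ± 11.8, 32.6 ± 25.2 and 28.8 ± 13.3 TPM. Ccl5, Ccl20 and Ccl25 were at 19.5, 13.9 and 8.13 TPM, and Ccl4 and Ccl3 came last at 5.64 and 4.50 TPM. The ranges of each pair of neighbours in this order overlapped. In knockout gut Ccl8 was again first, at 214 ± 194 TPM, and Ccl28 was next, at 68.9 ± 23.1 TPM, with overlapping ranges. Ccl28 lay above Ccl11 (22.2 ± 14.3 TPM) with no overlap. Ccl7, Ccl5, Ccl2, Ccl20 and Ccl25 came next, at 17.3, 16.8, 11.9, 11.8 and 7.93 TPM, each overlapping its neighbour. Ccl25 lay above Ccl3 and Ccl4, at 0.984 and 0.708 TPM, without overlap.

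**Figure D4:**
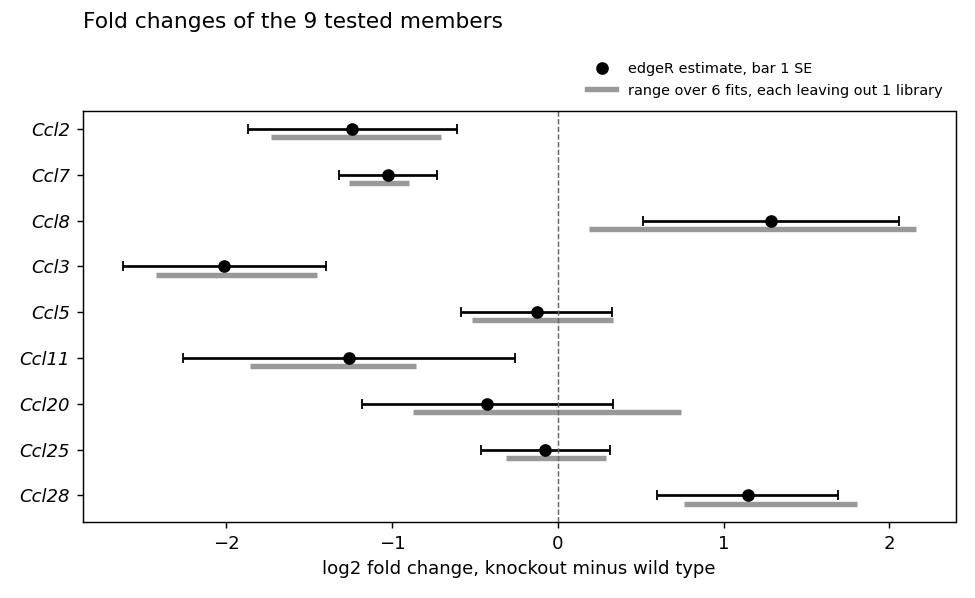
Log2 fold change (knockout minus wild type) of the 9 tested members with 1 SE (black), and the range over 6 fits that each left out 1 library (grey). Ccl2, Ccl7, Ccl3 and Ccl11 stay below 0 and Ccl8 and Ccl28 above 0 when any 1 library is left out, while Ccl5, Ccl20 and Ccl25 cross 0.

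The remaining CC chemokines gave 0 calls among 7 tested of 11 listed, beside 0% of all tested genes. Of the 7, 5 were above and 2 below a log2 fold change of 0, where 44.2% of all tested genes were above 0. Their median was 0.29. Ccl9, a CCR1 ligand of myeloid cells, was at 21.8, 26.3 and 31.5 CPM for wild types and 19.2, 16.3 and 19.1 CPM for knockouts. Its log2 fold change was -0.54 (SE 0.20, edgeR adjusted p = 0.710). All its knockout libraries were lower, as in 4.27% of all tested genes. Its neighbour Ccl6, another CCR1 ligand, went the other way, at 105, 51.7 and 71.3 CPM for wild types and 147, 152 and 82.8 CPM for knockouts (0.75, SE 0.34), with overlap. Ccl12, a mouse ligand of CCR2, was highest in knockout library 2, at 4.99 CPM, and wild type library 3, at 3.22 CPM, the libraries that were highest in Ccl8. The CCR7 ligands Ccl21a and Ccl19, which place lymphocytes and dendritic cells in lymphoid tissue, had log2 fold changes of -0.16 (SE 0.80) and 0.35 (SE 0.68). Reads of both may be shared with near-identical gene copies, so these values are uncertain, as are those of Ccr2. The CCR4 ligand Ccl22 and the CCR3 ligand Ccl24 differed by 0.29 (SE 0.40) and 0.29 (SE 0.57).

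Receptor genes showed no difference beyond their spread. Of 14 CC and atypical receptor genes, 12 were tested and 0 passed, beside 0% of all tested genes. Positive log2 fold changes were found in 4 and negative ones in 8, where 44.2% of all tested genes were above 0. The median was -0.12. Ccr2, the receptor for Ccl2 and Ccl7, was at 7.42, 21.2 and 22.1 CPM for wild types and 9.98, 39.9 and 12.6 CPM for knockouts (0.30, SE 0.64). It was highest in knockout library 2, which also had the highest macrophage sum. Ccr1 differed by -0.09 (SE 0.41). The lymphocyte receptors paired with the epithelial chemokines, Ccr10, Ccr9 and Ccr6, differed by -0.28 (SE 0.70), 0.27 (SE 0.58) and -0.15 (SE 0.52). Ccr7, which homes cells to lymphoid tissue, and Ccr4, a receptor of helper and regulatory T cells, differed by -0.02 (SE 0.51) and -0.40 (SE 0.61). Among the atypical receptors, the venular Ackr1, the scavenger of inflammatory chemokines Ackr2, the scavenger of CCL19, CCL21 and CCL25 Ackr4, and Ccrl2 differed by -0.43 (SE 0.70), -0.29 (SE 0.81), -0.17 (SE 0.47) and 0.39 (SE 0.54).

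**Figure D5:**
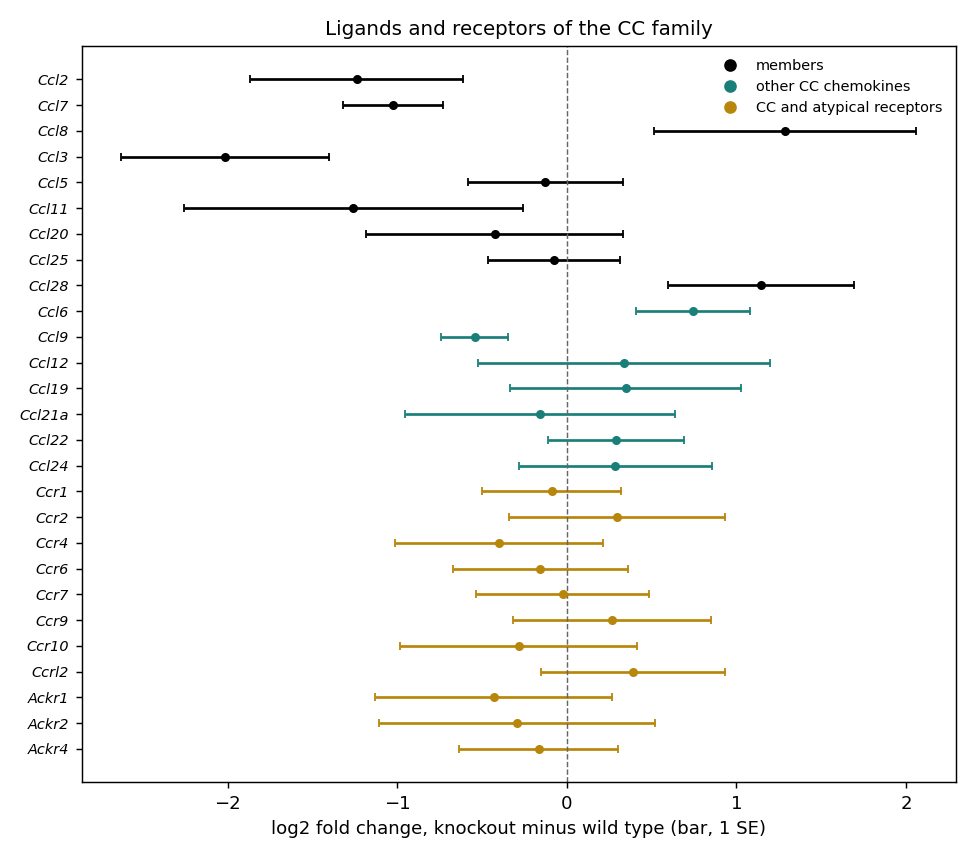
Log2 fold change with 1 SE for the tested members (black), other CC chemokines (green) and receptors (gold). The estimates farthest from 0 are those of members, Ccl3 at -2.01 and Ccl8 at 1.29, and those of the receptors shown lie between -0.43 and 0.39.

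Genes whose profile over the 6 libraries was most like that of Ccl2 or Ccl28 were sought among 13301 tested genes at 1 CPM or more, by the root mean square difference of log2 levels centred on each gene's mean. For Ccl2 these were Prkar1b (0.147), Mpdz (0.173), Ptgir (0.188), Pfn2 (0.194) and Ahi1 (0.199). Ptgir, which encodes the prostacyclin receptor, was at 1.06, 7.52 and 6.66 CPM for wild types and 1.61, 2.66 and 1.352 CPM for knockouts. For Ccl28 they were Lrrc26 (0.106), Fads2 (0.109), Dhx58 (0.110), Slc6a14 (0.112) and Slc5a8 (0.122). Lrrc26 encodes a potassium channel subunit of goblet cells, Slc6a14 an amino acid transporter and Slc5a8 a butyrate transporter of colonocytes. Slc6a14 was at 599, 149 and 282 CPM for wild types and 693, 914 and 466 CPM for knockouts, with wild type library 1 inside the knockout range, as in Ccl28. These 10 genes were picked for likeness over the same 6 libraries, so their own fold changes are not separate evidence.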

How the data were processed

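RNA was sequenced from intestine of BALB/c mice, 3 of wild type and 3 lacking FcεRIα, grouped and numbered by their titles. P-values measure the spread between these mice. Libraries were made with an Illumina TruSeq kit from TRIzol-extracted, DNase-treated RNA, per the labels' protocols. Per the submitters' processing notes, TopHat2 2.0.0 and mm10 were used. The counting program, annotation and strand setting were not given in the sources used here. The deposited tables hold estimated counts per gene, with a fractional value in 12.4% to 14.8% of features.

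Counts were rounded and tested with edgeR 4.0.16 (quasi-likelihood, TMM, filterByExpr with a minimum count of 10, no block) in R 4.3.3. The 16732 genes kept were adjusted together by Benjamini-Hochberg, with a threshold of 0.05. Log2 CPM used a prior count of 2. SEs are the fold change over the square root of F. DESeq2 1.42.0 and limma 3.58.1 were alternatives. The scripts were tested on simulated counts. No 2 libraries were copies (chi-square per degree of freedom 33.8 or more).

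The members and lists were chosen with earlier results of these data known. All members were named, with the CC chemokines and receptors of the lists that reached 1 CPM in a group mean, and the 5 genes most like Ccl2 and Ccl28. Markers and single genes beside a result were chosen after values were seen. Some listed genes are counted in the lists but not reported here.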

Additional observations from a re-analysis of the deposited data

How the results depend on the processing

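With other scaling factors, filters, tools and left-out libraries, 0 members and 0 of the other CC chemokines and receptors were called. Genes called over the whole table were 0 higher and 0 lower by edgeR, 86 higher and 41 lower by DESeq2, 2 lower by limma-voom, and 1 higher and 2 lower with no filter beyond 1 count. The fold changes of Ccl7, Ccl8 and Ccl28 kept their sign in all fits, that of Ccl3 in all but the filter of 1 CPM in at least 3 libraries, which left it out, and those of Ccl2 and Ccl11 in all but the fit with the epithelial covariate (0.0153 and 1.18), where that of Ccl5 also turned positive (0.0896). Limma-voom turned Ccl20 (0.0426) and Ccl25 (0.0404). Leaving out 1 library gave -0.52 to 0.33 for Ccl5, -0.88 to 0.74 for Ccl20 and -0.31 to 0.29 for Ccl25. The cause of these turns was not tested.

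The replicate numbers are shared by the groups, but no label ties equal numbers to a litter or day, and the deviations of same-numbered libraries correlated at 0.42, -0.13 and 0.01. With the replicate number as a block edgeR called 0 members, and Ccl25 stood at 0.0033. Without scaling factors the median log2 fold change of all genes moved from -0.05 to -0.13. Counts under 10, as for Ccl4 in 4 libraries, limit the precision of Ccl3 and Ccl4.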
